A study of Mus musculus with 22 samples.

Results

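Mucus-producing cells of the stomach were sought in single-cell RNA-seq of dissociated mouse organs, by the transcripts of 6 genes: the gastrokines Gkn1 and Gkn2, the trefoil peptides Tff1 and Tff2, and the gel-forming mucins Muc5ac and Muc6. In the 11 libraries of hashtagged tissue, members were selected on these counts: a barcode with 200 or more genes and no more than 25% mitochondrial UMIs was taken if it held a UMI of at least 3 of the 6 genes, and held none of Ptprc, Pecam1, Atp4a and Sftpc, the markers of leukocytes, endothelium, parietal cells and alveolar type 2 cells. These conditions gave 730 members among 93055 barcodes that passed the 2 quality filters, or 0.784%. The members were thus chosen by measured values, and the levels of these genes in the members, and all differences between the members and other barcodes, are descriptions and carry no test.

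Every mouse carried Prom1-CreERT2 and the Rosa26ZSG reporter, in which tamoxifen-activated recombinase in Prom1-expressing cells and their descendants switches on a green fluorescent protein. The tissue groups were Nalcn-wt (5 libraries, ages 571, 571, 608, 611 and 654 days), Nalcn-het (2 libraries, 551 days) and Nalcn-null (2 libraries, 552 and 611 days). In a further 2 tissue libraries (610 and 647 days) the title and the strain did not match on Nalcn, and these entered no comparison of genotypes. Each library pooled cells of epididymis or uterus, kidney, liver, lung and stomach from hashtagged suspensions, and the hashtag reads were not used here, so the organ of a barcode was not known from its label. The labels named no separate animals behind the libraries, so n counts libraries and each p-value measures only the spread between them.

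Surface mucous cells line the gastric lumen and its pits. They secrete Muc5ac, the chief mucin of the surface gel, together with Tff1 and the gastrokines. Mucous neck cells lie deeper in the gland and secrete Muc6 and Tff2, and cells expressing these genes expand in spasmolytic polypeptide-expressing metaplasia, a response of the stomach to injury. Gkn1, Gkn2 and Gkn3 lie beside each other within 43.3 kb of chromosome 6 (GRCm38): Gkn1 at chr6:87345650-87350942 on the minus strand, Gkn2 at chr6:87373357-87379497 on the plus strand and Gkn3 at chr6:87383256-87388935 on the minus strand. Muc6 (chr7:141633456-141655319, minus strand) and Muc5ac (chr7:141788972-141819231, plus strand) lie in the mucin cluster of chromosome 7, with Muc2 between them, and Tff2 (chr17:31141049-31144282) and Tff1 (chr17:31161395-31165277), both on the minus strand, lie close together on chromosome 17. All are protein-coding.

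The 250 bases before the RefSeq start of 4 of these genes (GRCm38.p6, printed 5′ to 3′ on the strand of the gene) are shown because the neighbouring gastrokines Gkn2 and Gkn3 lay on opposite sides when the members richest in the markers were divided by Tff2 and Gkn1, a division that fixed the side of Gkn1 in advance. Muc6 is shown as the mucin of the neck cell. Capitals mark GATAA or its reverse complement TTATC, the core of the sequence bound by GATA factors such as Gata4 and Gata6 of the gastric epithelium.
Gkn1 chr6:87350916-87351165 (minus strand): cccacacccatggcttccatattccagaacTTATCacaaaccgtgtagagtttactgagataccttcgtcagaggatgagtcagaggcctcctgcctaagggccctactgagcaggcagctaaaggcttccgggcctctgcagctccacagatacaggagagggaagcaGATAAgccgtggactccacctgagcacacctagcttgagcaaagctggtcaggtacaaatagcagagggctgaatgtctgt
Gkn2 chr6:87373115-87373364 (plus strand): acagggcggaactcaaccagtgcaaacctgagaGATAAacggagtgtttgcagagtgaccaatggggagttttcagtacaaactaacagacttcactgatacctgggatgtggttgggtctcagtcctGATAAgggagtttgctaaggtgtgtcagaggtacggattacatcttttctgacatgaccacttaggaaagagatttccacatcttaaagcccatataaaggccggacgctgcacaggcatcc
Gkn3 chr6:87388936-87389185 (minus strand): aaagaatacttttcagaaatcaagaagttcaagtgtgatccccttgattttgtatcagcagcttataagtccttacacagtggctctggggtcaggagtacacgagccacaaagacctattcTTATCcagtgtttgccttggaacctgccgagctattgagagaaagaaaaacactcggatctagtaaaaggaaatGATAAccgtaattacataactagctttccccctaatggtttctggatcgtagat
Muc6 chr7:141655394-141655643 (minus strand): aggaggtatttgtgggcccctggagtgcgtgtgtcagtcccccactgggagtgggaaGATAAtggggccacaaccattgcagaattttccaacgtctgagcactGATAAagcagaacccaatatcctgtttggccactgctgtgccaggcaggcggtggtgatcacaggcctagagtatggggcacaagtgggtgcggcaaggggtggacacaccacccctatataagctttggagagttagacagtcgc
Each of the 4 windows held 2 such matches, while 22.6% of 32851 RefSeq windows of this length held at least 1 and 4.28% at least 2. TATAA, searched on both strands with overlaps allowed, had 0 matches before Gkn1, 1 before Gkn2, 2 before Gkn3 and 1 before Muc6, and 22.8% of all windows held at least 1. The motif was chosen after these windows had been read, and a match is a run of letters, not a shown binding site.

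The label held for a minority of the members. In 508 of the 730 (69.6%) the 6 genes made up less than 1% of UMIs, 43 lay between 1% and 3%, and 179 (24.5%) were at 3% or more. The members below 1% typically held a single UMI of each marker they had. Among barcodes with Ptprc, which marks leukocytes and should lack all 6 genes, 1321 of 45744 (2.89%) also held at least 3 of them, at a median share of 0.166% of UMIs against 0.364% over all members. Only 45 of those 1321 (3.41%) reached 3%. The median number of UMIs was 4763 in the members at 3% or more and 1894.5 in those below 1%. The median mitochondrial share was 16.3% against 16.6%, with all members limited to 25% by the rule, so it does not compare the 2 kinds beyond that limit.

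**Figure D1:**
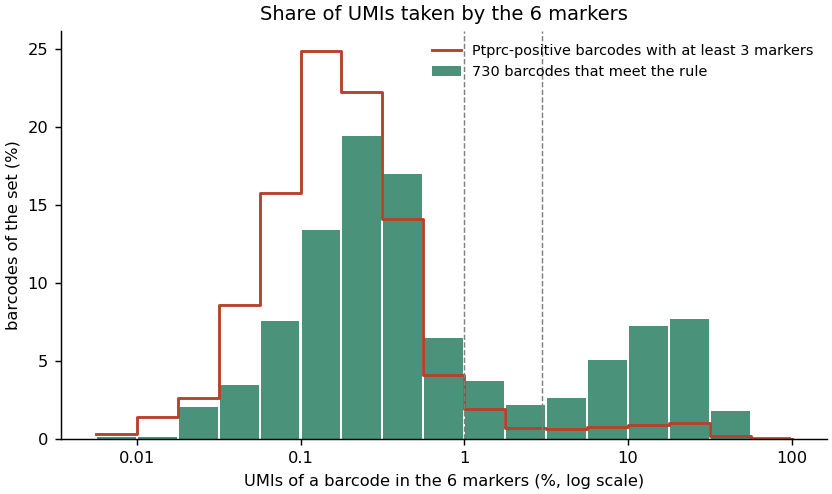
Share of a barcode's UMIs in the 6 marker genes (percent, log axis) against the percent of the barcodes of each set. Bars are the 730 members, the line is the 1321 Ptprc-positive barcodes with at least 3 markers, and dashed lines stand at 1% and 3%: the members form a low-share group that overlaps the Ptprc-positive barcodes and a separate group above 3%.

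The leading genes of the 508 marker-poor members were those of other organs. Levels are given in CPM, a gene's share of all UMIs summed over a set of cells on a fixed scale. Against all barcodes that passed the filters, they were higher for Scgb3a2 (1396 against 178) and Scgb3a1 (487 against 59.5), secretoglobins of the airway, for Lcn2 (1887 against 404), a lipocalin of injured epithelium, and for Clcn5 (297 against 47.6), a chloride transporter of the kidney proximal tubule. These barcodes met the rule, but the cell type name was not borne out by their transcripts. The 179 members at 3% or more, called marker-rich below, are the cells described in depth. The limit of 3% was set after the shares had been seen.

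By the number of markers, 466 members had exactly 3, 97 had 4, 160 had 5 and 7 had all 6. Just outside the rule, 2462 barcodes had 2 markers and 8935 had 1. Of the 466 with exactly 3 markers only 3 were marker-rich, against 150 of the 160 with 5. No barcode sequence was shared between members, although 3746 of 172882 barcode sequences of the tissue libraries occurred in more than 1 library and 36 members, 7 of them marker-rich, had such a sequence.

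The 11 tissue libraries held 8571019 to 139793927 UMIs. Wild-type replicate 3 stood apart: 16.6% of its Ptprc-positive barcodes held at least 3 markers, as did 14.9% in wild-type replicate 5, against 0.110% to 3.51% in the other libraries. Nalcn-null replicate 3 was labelled female, and its members held 297 Xist UMIs beside 10 UMIs of Y-linked genes, all 10 outside its 5 marker-rich cells. In the other 2 labelled female libraries of a genotype group, the members held no UMI of Y-linked genes. By Scrublet score, 147 of the 730 members and 66 of the 179 marker-rich cells were called doublets, including all 20 marker-rich cells of wild-type replicate 4 and all 17 of the libraries without a group. Over all passing barcodes, the share called ran from 3.83% in wild-type replicate 5 to 22.7% in wild-type replicate 4, and 77621 of 93055 were not called. The highest scores were called up to a rate set by the number of barcodes, so the total called per library was fixed in advance. The called barcodes were kept as members. Whether doublets made up part of the marker-rich cells was not tested.

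In the marker-rich cells, the secreted peptides of the gastric surface dominated the transcriptome. Tff1, a trefoil peptide that protects the surface epithelium, was present in all 179 cells at a median of 6.89% of a cell's UMIs and up to 26.3%. Gkn1, a gastrokine of the surface mucus, was present in 98.9% of the cells at a median of 3.44%, and Gkn2, its partner that binds Tff1, in 95.5% at 1.74%. Tff2 was present in 97.8% at 1.11%. The mucin that names the surface cell, Muc5ac, was present in 91.1% at 0.356%. Muc6, the mucin of the neck cell, was found in 6.70% of the cells. UMIs tag the 3′ end of a transcript once, so these shares are not scaled by gene length.

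Levels of the markers summed over the marker-rich cells are high in every library by the choice of these cells, so only their ranges are described. In the 8 libraries with at least 5 such cells, Tff1 ranged from 51160 to 111801 CPM, Gkn1 from 19939 to 86784, Gkn2 from 9372 to 38494 and Muc5ac from 2155 to 4565. Tff2 ranged from 5322 CPM in wild-type replicate 4 to 26505 in the library without a group titled replicate 1. The genotypes were interleaved in all 5 of these genes. The neck genes were uneven: Muc6 was at 55.3 CPM in Nalcn-null replicate 2, 29.8 in the library without a group titled replicate 1, 9.73 in wild-type replicate 3, 5.94 in Nalcn-het replicate 2 and 0 in the other 4 libraries. Gkn3, a gastrokine known from the neck cells of the mouse, was at 559 CPM in Nalcn-null replicate 2, 298 in the library without a group titled replicate 1, 116 in Nalcn-het replicate 2, 90.9 in Nalcn-null replicate 3, 77.9 in wild-type replicate 3, 39.5 in wild-type replicate 4 and 0 in the remaining 2. Wild-type replicate 2, with 2 marker-rich cells and so outside these 8, was at 551 CPM of Gkn3 with no Muc6 UMI in either cell, and Nalcn-null replicate 3 and wild-type replicate 4 held Gkn3 without Muc6.

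**Figure D2:**
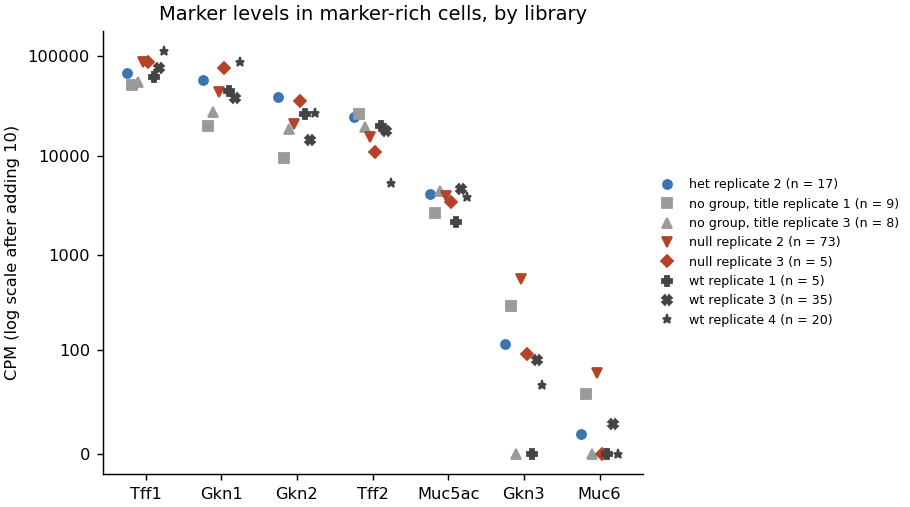
CPM of 7 genes in the marker-rich cells (log axis after adding 10), 1 point for each of the 8 libraries with at least 5 such cells, coloured by group. Tff1, Gkn1, Gkn2, Tff2 and Muc5ac lie above 2000 CPM in every library, whereas Gkn3 and Muc6 spread from 0 to 559 and 55.3 CPM. The cells were chosen by the summed UMIs of all these genes but Gkn3.

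Beyond the markers, the marker-rich cells carried transcripts of the gastric surface epithelium. Each cell was thinned to 1000 UMIs, which left 169 of the 179 cells, so that the share of cells with a UMI of a gene could be set beside the 425 marker-poor members and the 1239 Ptprc-positive barcodes with at least 3 markers at the same depth. Intervals are exact binomial 95% intervals and cover counting error only. Krt8, a keratin of simple epithelia, was detected in 92.9% of the marker-rich cells (87.9% to 96.3%), 16.9% of the marker-poor members and 8.80% of the Ptprc-positive barcodes. Car2, a carbonic anhydrase that supplies bicarbonate, was detected in 76.9% (69.8% to 83.0%), 12.7% and 8.23%. Over all 31053 features, 3.98% were detected in at least 10% of the marker-rich cells, 3.42% in as many of the marker-poor members and 3.77% of the Ptprc-positive barcodes, the background of the list counts that follow. Of the 7 genes of the surface mucous list that the rule did not use, 4 (Psca, Dpcr1, Gsta1 and Aldh1a1) reached 10% of the marker-rich cells, against 0 in each of the other sets. Dpcr1, a mucin-like membrane protein of the foveolar surface, reached 78.1% against 4.24% of the marker-poor members, Psca, a surface antigen of foveolar cells, 68.0% against 4.00%, and Gsta1, a glutathione transferase, 65.1% against 2.35%.

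Some genes that modify and fold mucins were detected most often in the marker-rich cells. Of 22 glycosylation genes, 7 reached 10% of the marker-rich cells, 1 of the marker-poor members and 0 of the Ptprc-positive barcodes, with a list median of 5.03%, 1.18% and 1.25%. Galnt7, which adds sugars to the mucin core, was detected in 41.4% against 2.82% of the marker-poor members, Gcnt3, which branches mucin glycans, in 34.9% against 0.235%, and C1galt1, which extends the core, in 26.0% against 4.24%. Agr2, the disulfide isomerase that mucins need to fold, was detected in 63.3% against 2.59%, whereas the folding list as a whole separated the sets little, with 16 of 24 genes at 10% or more against 13 in each of the others.

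Transcription factors of the stomach and foregut were seen at lower shares, as is usual for such transcripts. Klf4, a factor of differentiated surface epithelium, was detected in 52.1% of the marker-rich cells but also in 18.4% of the marker-poor members and 18.3% of the Ptprc-positive barcodes. Foxq1, needed for Muc5ac expression in the mouse stomach, reached 42.0% against 3.76%, Elf3 23.7%, Foxa3 14.2%, Sox21 11.2% and Gata6 10.1%. No marker-rich cell held a UMI of the intestinal factors Cdx1 and Cdx2 or of the intestinal products Muc2 and Tff3 after thinning. For each gene this allows up to 1.78% of cells with a UMI at this depth.

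Of the junction and keratin list, 9 of 19 genes reached 10% against 4 and 0, among them Krt19 (72.2%), Krt18 (42.6%), the gastric claudin Cldn18 (52.7% against 1.18% of the marker-poor members) and E-cadherin, Cdh1 (38.5% against 5.18%). Of the transport list, 6 of 20 reached 10% against 4 and 1, led by Car2 and by Atp1b1, a subunit of the sodium pump (52.1% against 19.5%). Pgc, the pepsinogen also made by neck and chief cells, was detected in 43.2%, and was the single gene of the 6 chief-cell markers to reach 10%. None of the 5 parietal markers other than Atp4a, which the rule set to 0, and none of the 6 endocrine markers did. Of 21 mucosal defence genes 1 reached 10%, against 4 and 2 in the other sets, of 17 metaplasia genes 4 against 3 and 2, and of 16 cell cycle genes 4 against 2 and 2.

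**Figure D3:**
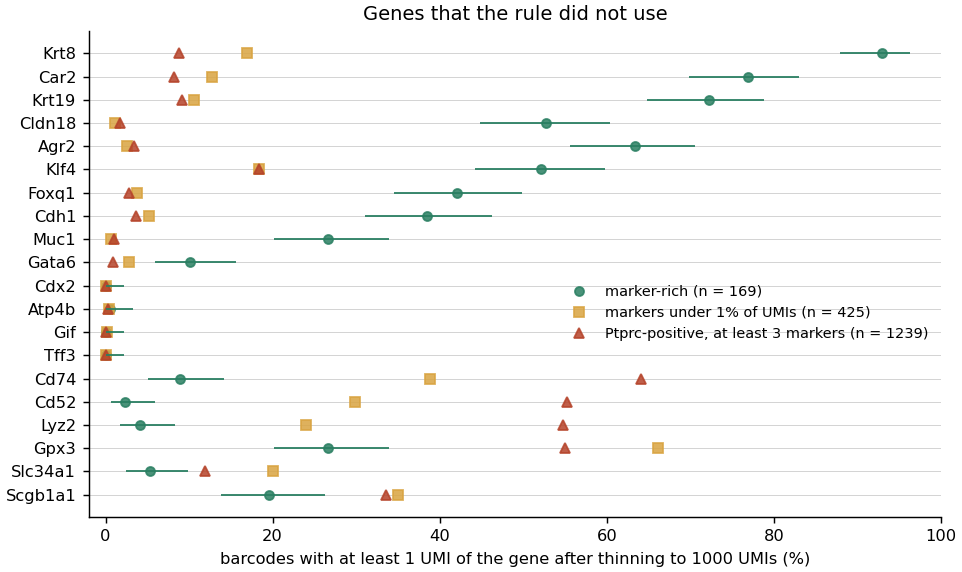
Percent of cells with at least 1 UMI of each gene after thinning to 1000 UMIs, for the marker-rich cells (n = 169, lines giving exact binomial 95% intervals), the marker-poor members (n = 425) and the Ptprc-positive barcodes with at least 3 markers (n = 1239). Epithelial and mucin genes such as Krt8, Agr2 and Cldn18 lie highest in the marker-rich cells, and leukocyte genes such as Cd74 lie highest in the Ptprc-positive barcodes.

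Transcripts of leukocytes, airway, kidney and epididymis were more often found in the marker-poor members. Cd74, the invariant chain of antigen presentation, was detected in 8.88% of the marker-rich cells, 38.8% of the marker-poor members and 64.1% of the Ptprc-positive barcodes. Lyz2, a lysozyme of myeloid cells, was detected in 4.14%, 24.0% and 54.8%. Of the 5 leukocyte markers other than Ptprc, which the rule set to 0 in members, 0 reached 10% of the marker-rich cells, against 3 of the marker-poor members (Cd52, Cd74 and Lyz2) and 4 of the Ptprc-positive barcodes (these and Cd79a). Scgb1a1, the club-cell secretoglobin of the lung, was detected in 19.5%, 35.1% and 33.6%, and Gpx3, made by the kidney proximal tubule, in 26.6%, 66.1% and 55.0%. The kidney and epididymis lists reached 10% for 1 of 5 and 0 of 5 genes in the marker-rich cells and for 3 of 5 each in the marker-poor members. The 4 hepatocyte markers did not separate the sets, with a median of 5.03% in the marker-rich cells, 3.88% in the marker-poor members and 2.30% in the Ptprc-positive barcodes. Dissociation-response genes were lower in the marker-rich cells, with Jun at 14.8% against 31.3% of the marker-poor members and Hspa1a at 6.51% against 20%.

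Of 31053 features, 841 were at least 2-fold higher in the summed counts of the marker-rich cells than in all barcodes that passed the filters. This count was made on CPM after adding 10. Of the 93055 barcodes compared against, 45744 held Ptprc, whereas members were chosen to lack Ptprc, Pecam1, Atp4a and Sftpc. The part of this difference in makeup in the 841 was not tested. Past the markers, the leading genes included Dpcr1 (3442 against 33.8 CPM, 102-fold without the added 10) and Psca (4248 against 74.2). The galectin Lgals2 (3202 against 38.7) and the gasdermin Gsdma2 (1295 against 11.5) were also among the leading genes. Some enzymes stood among them, named after their values were seen and from no fixed list: the glutathione transferases Gsta1 (1858 against 25.6 CPM), Gsto1 (2761 against 123), Gsta4 (1788 against 81.4), Mgst3 (1896 against 90.0), the quinone reductase Nqo1 (568 against 12.5), the retinol-oxidising alcohol dehydrogenase Adh7 (269 against 5.06) and the aldehyde dehydrogenase Aldh3a1 (288 against 6.15). Anxa10 (727 against 8.56 CPM), Vsig1 (692 against 8.86) and Ctse (975 against 20.9), which encode an annexin, a junctional adhesion protein and a protease characteristic of the stomach, were likewise high.

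Nalcn encodes the sodium leak channel that the study deleted. No member held a UMI of Nalcn, which allows a share of members with a UMI of up to 0.411%, so the genotype labels could not be checked in these cells. Prom1, whose promoter drives the recombinase, was detected in 0.592% of the thinned marker-rich cells. Of 10 genes of invasion and epithelial-mesenchymal transition named in the study, 8 (Mmp7, Mmp9, Mmp10, Mmp19, Zeb1, Fstl1, Sfrp4 and Cdh6) were at 0 in the thinned marker-rich cells. For each gene this allows up to 1.78% of cells with a UMI at this depth. Of all 31053 features, 3.98% were detected in at least 10% of these cells. The share of all features at 0 is not given here, so the 8 are not set apart from other genes. Timp3, an inhibitor of matrix proteases, was detected in 4.73% against 24.9% of the marker-poor members, and Sparc, a matrix protein, in 0.592%.

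The rule divides surface from neck cells by Muc5ac and Muc6, and this division was lopsided. Muc5ac was found in 250 members, 163 of them marker-rich, with 5779 UMIs in all, and Muc6 in 21 members, 12 of them marker-rich, with 36 UMIs in all and at most 7 in a cell. Muc5ac alone was found in 240 members, Muc6 alone in 11, both in 10 and neither in 469. No library had at least 20 cells of each kind, so levels of other genes were not compared between Muc5ac and Muc6 cells. Among the 12 marker-rich cells with Muc6, 11 held more Tff2 than Gkn1 UMIs.

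Most Muc6 transcripts lay outside the members. Of 1098 Muc6 UMIs in the tissue libraries, 3.28% were in members, 50.5% in barcodes above 25% mitochondrial UMIs, 32.5% in barcodes with Ptprc, Pecam1, Atp4a or Sftpc and 12.8% in barcodes with fewer than 3 markers. For Muc5ac 37.5% of UMIs were in members, for Tff2 25.1% and for Gkn3, with 2198 UMIs, 15.4%. Over all barcodes, 577 were marker-rich: the 179 members, 322 above 25% mitochondrial UMIs, and 76 kept out by the 4 genes, of which 48 held just 1 UMI of them.

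A division by the 2 secreted peptides used more cells. Of the 179 marker-rich cells, 50 held more Tff2 than Gkn1 UMIs and 129 did not. This division was chosen after the counts had been seen, and differences between its sides are descriptions. The Tff2-high share was 40.0% of 35 cells in wild-type replicate 3, 30.1% of 73 in Nalcn-null replicate 2, 23.5% of 17 in Nalcn-het replicate 2 and 5.00% of 20 in wild-type replicate 4, with fewer than 10 cells in each other library. Levels were compared within wild-type replicate 3 and Nalcn-null replicate 2, the 2 libraries with at least 10 cells on each side, as log2 differences of CPM after adding 10. Of 3270 genes at 50 CPM or more on at least 1 side, a limit that a gene high on 1 side passes more easily, 10.6% were at least 2-fold higher and 4.1% at least 2-fold lower on average with the same sign in both libraries, and the median difference over all of these genes was 0.24.

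Gkn3, Muc6 and most cell cycle genes lay on the Tff2-high side, while the neck list as a whole was divided. Gkn3 was at 1644 against 26.1 CPM in Nalcn-null replicate 2 and 161 against 0 in wild-type replicate 3, a mean log2 difference of 4.81, and Muc6 at 168 against 0 and 20.1 against 0. Muc6 was used by the rule, and 11 of its 19 UMIs behind the 168 CPM were in 2 cells that held exactly 3 markers with Muc6 among them. Of 9 listed neck genes, 3 (Gkn3, Muc6 and Tff2, the last used to divide the cells) were higher and 2 (Spink4 and A4gnt) lower in both libraries. Of 16 listed cell cycle genes, 15 were higher and 0 lower in both libraries whatever their level, with a median log2 difference of 1.57, and the 10 above the level limit were at least 2-fold higher, against 10.6% of all genes above it. Mcm3, Mcm5, Ccnb1 and Rrm2 passed that limit by the Tff2-high side alone. The 6 at 50 CPM or more on both sides (Stmn1, Mki67, Hmgb2, Top2a, Birc5 and Tubb5) were all at least 2-fold higher, against 4.92% of 2195 such genes. Over all 31053 features, 4025 were higher and 1845 lower in both libraries. Mki67, a marker of cycling cells, was at 203 against 60.8 CPM and 456 against 145, and Top2a, a topoisomerase of replicating cells, at 150 against 69.5 and 228 against 37.7. After thinning, Mki67 was detected in 20.8% of 48 Tff2-high cells and 7.44% of 121 others, and Hmgb2, a chromatin protein of dividing cells, in 31.2% and 11.6%.

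Surface genes were lower in the Tff2-high cells. Of the 7 listed surface genes that the rule did not use, 6 were lower and 0 higher in both libraries, with a median log2 difference of -1.78. Of the 5 above the level limit, 4 (Psca, Dpcr1, Gsta1 and Capn9, the last by the other side alone) were at least 2-fold lower, against 4.1% of all genes above it. Gkn1, used to divide the cells, was at 7548 against 61579 CPM in Nalcn-null replicate 2 and 13745 against 60540 in wild-type replicate 3, and its neighbour Gkn2, used by the rule but not for this division, at 5162 against 28348 and 6561 against 21731. Gkn2 thus lay on the opposite side from Gkn3, while the side of Gkn1 was fixed by the division. Psca was at 239 against 6104 CPM and 617 against 4780, Dpcr1 at 477 against 4119 and 1481 against 4497, and Capn9, a calpain of the surface epithelium, at 0 against 91.2 and 6.70 against 132. Muc5ac differed less, at 1838 against 4870 CPM and 4055 against 5044. Psca was detected in 25% of the thinned Tff2-high cells and 85.1% of the others.

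Other groups separated little or in part. Of 22 glycosylation genes, 4 were higher and 4 lower in both libraries, and none of the 12 above the level limit was 2-fold apart. Among 24 folding genes, 16 were higher and 0 lower in both libraries, and Agr2 (2641 against 998 CPM on average) and the secretory-pathway factor Creb3l1 were at least 2-fold higher, Creb3l1 passing the level limit by that side alone. Of 17 metaplasia genes, 8 were higher and 2 lower in both libraries, with a median log2 difference of 0.37. Among them Vil1, Cd44, Wfdc2, Cftr and Dmbt1 were at least 2-fold higher, against 10.6% of all genes above the level limit, which Vil1, Cd44 and Cftr passed by that side alone, and Muc1 was at least 2-fold lower. Dmbt1, a secreted scavenger glycoprotein of mucosa, was at 460 against 81.9 CPM on average, and Muc1, a membrane mucin, at 164 against 352. Epcam, an adhesion molecule, was at 464 against 136 CPM, while among genes of the whole mucous epithelium Krt8 (3490 against 4088), Klf4 (769 against 768) and Cldn18 (844 against 941) were close on both sides.

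The same division was made in marker-rich barcodes that the rule kept out, which share libraries with the members but none of their barcodes. Of 398 such barcodes, 102 held more Tff2 than Gkn1, and 7 libraries had at least 5 on each side. Gkn3 was at 812 against 18.4 CPM on average and higher in 7 of 7 libraries, Muc6 at 196 against 6.72 (7 of 7), Agr2 at 2147 against 641 (7 of 7) and Mki67 at 227 against 108 (6 of 7). Psca was at 469 against 3015 CPM and lower in 7 of 7 libraries, as was Dpcr1 at 1029 against 3241. Of the 10 genes with the largest rise in the members, 3 had the same sign in every library here, and 10 had it on average. Of the 10 with the largest fall, Gkn1 among them, 8 had the same sign in every library and 10 on average. Of 13 cell cycle genes at 50 CPM or more on at least 1 side, 4 (Pcna, Ccnb2, Top2a and Ccnb1) were at least 2-fold higher with the same sign in every library, against 2.66% of 2666 genes, but Pcna, Ccnb2 and Ccnb1 passed the limit by the Tff2-high side alone. Of the 5 at 50 CPM or more on both sides 1, Top2a, was, against 1.34% of 1859 genes. Of the 2 neck genes that were lower in the members, Spink4 was lower in 5 of 7 libraries here. A4gnt, at 17.0 against 7.78 CPM on average, was higher in 4 and lower in 2. Since Gkn1 and Tff2 divided these barcodes too, the comparison is a second description, not a test. High mitochondrial shares or a UMI of an excluded gene were what kept them out, and the part of either in these values was not tested.

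**Figure D4:**
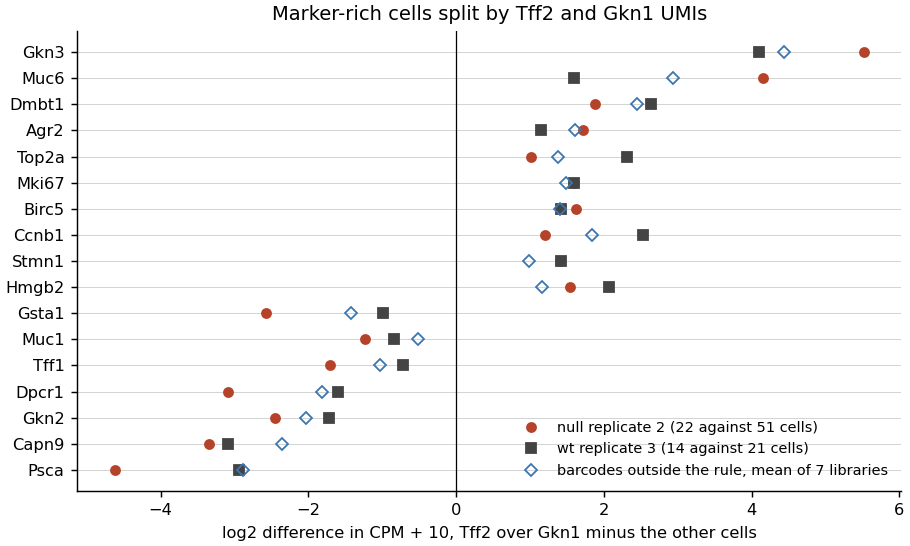
Log2 difference in CPM (10 added) between marker-rich cells with more Tff2 than Gkn1 and other marker-rich cells, for named genes. Points are Nalcn-null replicate 2, wild-type replicate 3 and the mean of 7 libraries of barcodes outside the rule, and Gkn3, Muc6 and the cell cycle genes plotted lie to the right of 0 while Psca, Dpcr1 and Gkn2 lie to the left in all 3.

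The genotypes were compared in the abundance of the members and in their transcripts, the question being whether deletion of Nalcn changed these cells. Members made up 0.303%, 0.296%, 3.55%, 0.849% and 1.05% of passing barcodes in wild-type replicates 1 to 5, 0.147% and 0.840% in Nalcn-het replicates 1 and 2, and 1.77% and 0.982% in Nalcn-null replicates 2 and 3. The groups overlapped. The mean was 1.21% ± 1.35 (SD, n = 5) in wild-type, 0.493% ± 0.490 (SD, n = 2) in Nalcn-het and 1.38% ± 0.556 (SD, n = 2) in Nalcn-null tissue. Neither Nalcn-null (exact two-sided permutation test, p = 0.952) nor Nalcn-het (exact permutation, p = 0.476) differed from wild-type beyond the spread between libraries, and the smallest p that 2 against 5 libraries allow is 0.0476. With both groups together the mean was 0.934% ± 0.665 (SD, n = 4; exact permutation, p = 0.802). A share of barcodes depends on how the organs were pooled as well as on the stomach, and the 2 cannot be told apart here.

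Restricting the count to marker-rich cells gave 5, 2, 35, 20 and 1 cells in wild-type, 4 and 17 in Nalcn-het, and 73 and 5 in Nalcn-null libraries. Their mean share was 0.244% ± 0.247 (SD, n = 5), 0.237% ± 0.259 (SD, n = 2) and 0.446% ± 0.555 (SD, n = 2), with exact permutation p = 0.571 for Nalcn-null and 1 for Nalcn-het against wild-type. Of the 78 Nalcn-null marker-rich cells, 73 came from replicate 2. Without wild-type replicate 3, the Nalcn-null mean for all members was 0.752 percentage points above wild-type in place of 0.166 (exact permutation, p = 0.2), and without Nalcn-null replicate 2 the difference was -0.227.

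**Figure D5:**
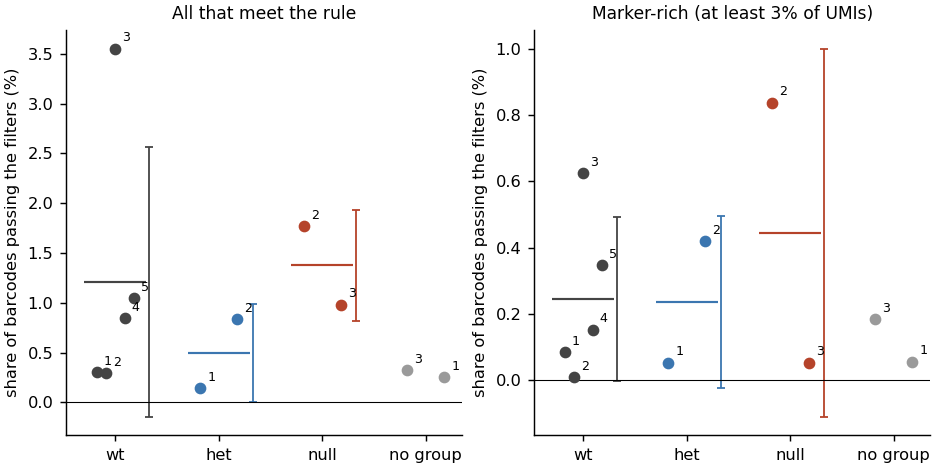
Members (left) and marker-rich members (right) as a percent of barcodes that passed the quality filters, 1 numbered point per tissue library, with the mean and SD for wild-type (n = 5), Nalcn-het (n = 2) and Nalcn-null (n = 2), and points alone for the 2 libraries without a group. Wild-type replicate 3 lies highest among members at 3.55%, and Nalcn-null replicate 2 highest among marker-rich cells at 0.838%.

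Cells with Muc6 and no Muc5ac were compared as a share of the thinned members with either mucin. The share was 3 of 64 (4.69%) in Nalcn-null replicate 2, 1 of 9 (11.1%) in Nalcn-null replicate 3, 1 of 45 (2.22%) in wild-type replicate 3, and 0 of 3, 0 of 29 and 0 of 14 in wild-type replicate 2, wild-type replicate 4 and Nalcn-het replicate 2. The mean was 7.16 percentage points higher in Nalcn-null than in wild-type, on 5 cells in all. Both mucins were used by the rule, so this is a description with no test.

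In the transcripts of the members, no gene passed the test between genotypes. Counts were summed per library for the 6 libraries with at least 20 members (3 wild-type, 1 Nalcn-het and 2 Nalcn-null), with the labelled sex as a covariate. Of 8099 genes, edgeR's quasi-likelihood test called 0 (0.0%) at an adjusted p below 0.05 for Nalcn-null against wild-type, with 139 at an unadjusted p below 0.05, 80 higher and 59 lower. For Nalcn-het and Nalcn-null together it called 0 (0.0%), with 398 at an unadjusted p below 0.05, 97 higher and 301 lower. DESeq2 called 10 and 19, and gave no adjusted p for 6281 and 4554 of the 8099 genes. Nalcn-het alone had 1 library in this fit and was tested against wild-type with libraries of at least 10 members, where edgeR called 0 of 6198 genes (0.0%), with 424 at an unadjusted p below 0.05. At the limit of 20 members the single Nalcn-het library had no spread of its own, so no test is given for it. In these sums over all members, the mix of marker-rich and marker-poor cells was not separated from the levels within cells.

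The counts of the 6 markers had chosen the members, so their differences between genotypes are a description with no test. For Nalcn-null against wild-type, the log2 difference was 0.73 ± 1.35 (SE) for Gkn1, 0.64 ± 1.28 for Tff1, 0.29 ± 1.08 for Muc5ac, 0.64 ± 0.778 for Tff2 and 2.43 ± 1.14 for Muc6. Gkn3, which was not used, stood at 2.49 ± 1.01 with an edgeR adjusted p of 0.998. The differences of all 6 markers were positive. Tff1 summed over members was at 3119, 26775 and 57651 CPM in wild-type replicates 2, 3 and 4, 45428 in Nalcn-het replicate 2, and 60722 and 10556 in Nalcn-null replicates 2 and 3, so the groups overlapped. Marker-rich cells were 2 of the 54 members in wild-type replicate 2 and 5 of the 92 in Nalcn-null replicate 3, the 2 libraries lowest in Tff1, and the part of this mixture in the differences was not tested. Of the genes of the surface, neck, glycosylation, folding and cell cycle lists that the rule did not use, 0 passed, as over all genes.

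The genes with the lowest p were not gastric. Lcn8, a lipocalin of the epididymis, was at 292 and 11287 CPM in Nalcn-null replicates 2 and 3, 0 in wild-type replicates 2, 3 and 4 and 13.9 in Nalcn-het replicate 2. The highest of these was the library labelled female, whose label also entered the fit as the sex covariate. Defb47, a defensin, was at 486 and 1351 CPM in Nalcn-null replicates 2 and 3 and 0 in the same 3 wild-type libraries. Wild-type replicate 1, with 18 members and so outside this fit, had 40.5 CPM of Lcn8 from 4 UMIs and 10.1 CPM of Defb47 from 1. Wild-type replicate 5 and Nalcn-het replicate 1, also outside it, had 0 of both. The immunoglobulin heavy chain Ighg2c was at 3025 CPM in wild-type replicate 4 and at most 13.7 in the others of the 6. Clcn5, listed for Nalcn-het and Nalcn-null together, was at 389 and 459 CPM in wild-type replicates 2 and 3 and 25.3 in wild-type replicate 4. It was at 25.9 in Nalcn-het replicate 2 and 32.4 and 0 in the Nalcn-null libraries. None of these passed at an adjusted p below 0.05 (edgeR, lowest 0.162). Without Nalcn-null replicate 2, 21 genes passed for Nalcn-null, Lcn8 and Defb47 among them, on a single Nalcn-null library assumed to vary like the others.

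The same fit on the marker-rich cells, added after the data had been seen, used libraries with at least 5 of them and 4790 genes. It called 3 genes (0.0626%) for Nalcn-null and 2 (0.0418%) for Nalcn-het and Nalcn-null together. Gpx5, an epididymal glutathione peroxidase, was higher by 5.20 on the log2 scale (edgeR adjusted p = 0.00526), with 32 and 3 UMIs in Nalcn-null replicates 2 and 3, 14 in Nalcn-het replicate 2, 1 in wild-type replicate 1 and 0 in wild-type replicates 3 and 4. Per UMI the groups overlapped, since the single UMI of wild-type replicate 1 stood for 166 CPM against 93.2 and 90.9 in the Nalcn-null libraries. Defb20, an epididymal defensin, was higher by 7.02 (edgeR adjusted p = 0.00785), with 25, 3 and 5 UMIs in the same Nalcn libraries and 0 in wild-type. S100a9, a calprotectin subunit of neutrophils, was higher by 4.32 (edgeR adjusted p = 0.0451), with 35 UMIs in Nalcn-null replicate 3 and 3 in replicate 2, against 0, 4 and 1 in wild-type replicates 1, 3 and 4. In CPM this was 1060 in the 5 cells of Nalcn-null replicate 3 and 8.74 in replicate 2, which lay below the 13.0 of wild-type replicate 3, so 1 library carried the call. Tcim was higher by 3.81 in the 2 groups together (edgeR adjusted p = 0.0208), with 21 UMIs in Nalcn-het replicate 2, 6 and 16 in Nalcn-null replicates 2 and 3, and 1, 2 and 5 in wild-type replicates 1, 3 and 4. Its groups overlapped in CPM, at 62.4, 17.5 and 485 in those Nalcn libraries and 166, 6.49 and 24.7 in wild-type. Wild-type replicate 2, whose 2 cells were too few for the fit, had 16 UMIs or 1103 CPM, the highest of any library. Nalcn-null replicate 3, which held Gpx5 and Defb20, was labelled female. Whether epididymal RNA from other cells entered these cells' counts was not tested.

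In the marker-rich cells, 0 of the genes in the surface, neck, glycosylation, folding and cell cycle lists passed, leaving aside those that the rule used. Gpx5 and Defb20, which did pass, are in the fixed list of epididymis markers. Gkn3 differed by 2.58 ± 0.921 (SE) on the log2 scale between Nalcn-null and wild-type cells, at an unadjusted p of 0.00516 and an adjusted p of 1 (edgeR). Muc6, which the rule used and which therefore has no test, differed by 2.65 ± 1.31. The neck list did not move as one. Of its 5 genes in the fit, 1 was lower at an unadjusted p below 0.05 (edgeR), and its lowest log2 difference was -6.05. Of the 19 Muc6 UMIs of the marker-rich cells of Nalcn-null replicate 2, 11 were in 2 cells whose markers were Tff1, Tff2 and Muc6 alone, members only through Muc6. Nalcn-null replicate 2 had 559 and 55.3 CPM, and Nalcn-null replicate 3 with 5 cells had 90.9 and 0. Wild-type replicate 2, whose 2 cells were too few for the fit, had 551 CPM of Gkn3. The surface list had a median log2 difference of 0.01 over 10 genes, 4 of them used by the rule.

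The members belonged to the tissue libraries. The blood libraries of the series hold nontumour circulating ZsGreen-positive cells (10 libraries of Nalcn-wt, Nalcn-het and Nalcn-null mice aged 551 to 649 days) and peripheral blood mononuclear cells (1 Nalcn-wt library, 120 days). In the circulating cells 0 of 2109 passing barcodes met the rule, which allows a share of up to 0.142%, and 1 Muc6 UMI was the only marker UMI in 13389093. In the mononuclear cells 0 of 679 met it, which allows up to 0.442%, with no marker UMI among 1422144. In the tissue libraries the markers made up 422 to 4552 CPM, at a median of 1540.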

How the data were processed

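The deposited matrices hold raw UMI counts per gene and barcode, filtered by the authors with Cell Ranger against mm10 (31053 features). The submitters' notes list Cell Ranger 2.1.1 and the matrix headers 3.0.2. Libraries were prepared with the 10x Genomics 3′ v3 kit. Counts were used as deposited. A barcode needed 200 genes and no more than 25% mitochondrial UMIs to pass. Barcodes were scored per library with Scrublet in scanpy 1.11.5. The highest scores up to the expected rate (0.8% per 1000 barcodes, at most 25%) were called doublets and left in. Thinning to 1000 UMIs was seeded.

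Shares were compared with exact two-sided permutation tests over libraries. Summed counts were tested with edgeR 4.0.16 (TMM, filterByExpr, quasi-likelihood, Benjamini-Hochberg) and DESeq2 1.42.0 as an alternative. Genes were named from fixed lists and, per contrast, by the lowest p. The other genes named were chosen after their values were seen. In simulated data for Nalcn-null against wild-type (7881 genes), edgeR called 50.5% of 4-fold and 83.0% of 8-fold changes. Every simulated gene had the same fixed spread, and libraries of a group differed otherwise only in depth. The members varied more in their makeup between libraries, so these shares need not hold for them. The 2 tissue libraries with conflicting labels were left out of genotype comparisons. Promoters came from RefSeq (GRCm38.p6) and gene positions from GENCODE (GRCm38). The members and gene lists were chosen with earlier results of these data known.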

Additional observations from a re-analysis of the deposited data

Results flagged for a closer look

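The share of members in wild-type replicate 3, 3.55%, lay further from the other 4 wild-type libraries than Dixon's 95% limit allows, and was 1 of 7 measures tested in this way, each of which chance passes in about 1 in 20 groups. The same library had 16.6% of Ptprc-positive barcodes with at least 3 markers, and its share of marker-rich cells, 0.625%, was within the limit. The part of RNA from other cells in its share was not tested.

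The 2 tissue libraries that no comparison used also held members. The library titled Nalcn-het replicate 3, whose strain names Nalcn-null, held 14 members, 8 of them marker-rich. The library titled Nalcn-null replicate 1, whose strain names no Nalcn allele, held 40, 9 of them marker-rich.

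Among barcodes outside the members, 322 marker-rich barcodes had more than 25% mitochondrial UMIs and 76 held a UMI of Ptprc, Pecam1, Atp4a or Sftpc, of which 45 held Ptprc, 27 Pecam1, 7 Atp4a and 8 Sftpc.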

How the results depend on the processing

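No difference in the share of members passed the exact permutation test under any alternative run. With 1 library left out, 2 against 4 libraries allow no p below 0.0667 and 1 against 5 none below 0.167, so those p-values do not bear on stability. For Nalcn-het and Nalcn-null together against wild-type, the difference of -0.275 percentage points changed sign with at least 4 markers (0.0358), with markers at 1% of UMIs or more (0.142) and, added after seeing the data, with markers at 3% or more (0.0969) or the same at up to 50% mitochondrial UMIs (0.0769). For Nalcn-het alone it was 0.00878 at 1% or more. Leaving out 1 library at a time gave -0.227 to 0.752 for Nalcn-null, -1.06 to -0.130 for Nalcn-het and -0.553 to 0.311 for both, positive only without wild-type replicate 3. The share of Muc6 cells, 7.16 points higher in Nalcn-null, was 1.64 with at least 4 markers, 3.0 at 20% mitochondrial UMIs and 3.95 to 10.4 with 1 library left out. The number of members was 264 with at least 4 markers, 222 at 1% or more and 179 at 3% or more.

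Genes called for Nalcn-null and for both groups, 0 and 0 by edgeR, were 10 and 19 by DESeq2 and 87 and 170 without the filter on low counts. With markers at 1% or more they were 27 for both groups. With libraries of at least 10 such cells they were 19 and 10, and with markers at 3% or more and 5 cells, 3 and 2, the last 2 settings being added after seeing the data. Leaving out 1 library gave 0 to 21 for Nalcn-null, 21 without Nalcn-null replicate 2. Size factors by DESeq2's method, no sex covariate, libraries of at least 10 members, 20% mitochondrial UMIs and no doublets gave 0. With a replicate block in place of sex, 27 and 2 genes were called. Same-numbered wild-type and Nalcn-null libraries had correlations of -0.430 and -0.103 in their deviations from the group mean. These cannot decide whether the numbers pair the libraries. The deviations of the 2 Nalcn-null libraries mirror each other, so wild-type replicate 2 had 0.430 with Nalcn-null replicate 3. The gene test with at least 4 markers, the Nalcn-null test at 1% and the levels split by Muc5ac and Muc6 had too few cells and gave no value. The cause of these differences was not tested.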

Other observations

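Some barcodes carried the neck mucin without the surface genes. In the tissue libraries, 8 passing barcodes held Muc6 and Tff2 as their only markers, and in 3 of them the markers reached 1% of UMIs. The 4 in wild-type replicate 2, Nalcn-het replicate 2 and Nalcn-null replicate 3 held 1 Muc6 UMI each and no Gkn3. The other 4 were in the 2 libraries without a group. Of these, 2 were in the library titled Nalcn-null replicate 1, which has no group, and held 80 Muc6, 1546 Tff2 and 195 Gkn3 UMIs, with up to 58 Muc6 UMIs in a barcode. The 2 in the library titled Nalcn-het replicate 3 held 25 Muc6 and 17 Tff2 UMIs and no Gkn3, with up to 18 Muc6 UMIs in a barcode. No marker-rich member held more than 7.

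Further gastric genes lay in the same cells. Spink4, a secreted protease inhibitor of mucus cells, was detected in 16.6% of thinned marker-rich cells, 0.706% of marker-poor members and 0.969% of Ptprc-positive barcodes. Car9, a membrane carbonic anhydrase of the stomach, was detected in 18.9%, 0% and 0.484%.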
